A study of Sus scrofa with 2 samples.

Results

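LINE-1 open reading frame unigenes are assembled transcript sequences of the pig longissimus dorsi muscle (LM) whose best protein match was a reading frame of the LINE-1 retrotransposon. They were chosen by name, as the unigenes whose UniProt entry in the study's list of differentially expressed unigenes was LORF1, LORF2 or LIN1, or whose match in the nr protein database was a Swiss-Prot entry of that name. The rule found 51 unigenes, of which 46 were named through the study's list and 5 through the nr match alone. The deposited table of 65535 unigenes held 45 of the 51, namely 40 of the listed unigenes and all 5 of the others, and the remaining 6 were not analysed here. In the table, 4 of the 45 matched ORF1 (LORF1_HUMAN) and 41 matched ORF2, with 23 matched to LORF2_HUMAN, 11 to LORF2_MOUSE and 7 to LIN1_NYCCO, the ORF2 homologue of the slow loris. The study compared the LM of Yorkshire pigs, a lean and fast-growing European breed, with that of Shaziling pigs, a Chinese indigenous fat-type breed. Each breed was represented by 3 male full-sibs aged 25 days, so breed could not be told apart from family. The table held 1 column of read counts and 1 of RPKM for each breed, and each column named 3 animals, so that every value below came from 1 library per breed and had no replicate error. The sample titles were followed for the breed, because the stage label described the Yorkshire sample as indigenous and the Shaziling sample as lean-type.

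LINE-1 is the autonomous non-LTR retrotransposon of mammals. Its full-length messenger RNA encodes ORF1, an RNA-binding protein that coats the LINE-1 transcript, and ORF2, which carries the endonuclease and reverse transcriptase used to copy the RNA back into the genome. Most genomic copies are truncated at the 5′ end and many lie in introns or untranslated ends of other genes. A LINE-1 sequence in poly(A) RNA can therefore come from an element's own promoter or from a host transcript that carries a copy, and a short-read assembly of such RNA does not tell the sources apart. Reads from near-identical copies can also be divided among several unigenes, so the level of a single LINE-1 unigene is less certain than that of a single-copy gene.

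The values compare the 2 libraries, and the totals behind the RPKM were 33949238 reads in Yorkshire and 28305925 in Shaziling. A pair of mitochondrial unigenes took 46.4% of all Yorkshire reads and 11.8% of those of Shaziling. The 4 skeletal muscle markers found in the table, which were desmin, a fast myosin light chain, fast myosin-binding protein C and the fast sarcoplasmic reticulum calcium pump, summed to 2349 RPKM in Yorkshire and 7298 in Shaziling, so both libraries held muscle RNA. The 3 blood markers found summed to 18.9 and 213 RPKM, of which HBB alone made 18.5 and 207. HBM, an alpha-like globin, was near the floor in both libraries, with 0 Yorkshire and 7 Shaziling reads. The endothelial markers summed to 35.2 and 58.5 RPKM over 3 genes, CD74, the 1 immune marker found, stood at 35.1 and 74.8, the 2 adipocyte markers summed to 27.5 and 52.1, and the 4 fibroblast markers to 721 and 685. The part of these differences in the LINE-1 values was not tested. The lists held 15 muscle, 6 blood, 5 endothelial, 7 immune, 6 adipocyte and 6 fibroblast markers. Those not found had no symbol through the nr match, which says nothing of their level. With totals that left out the mitochondrial unigenes, every Yorkshire to Shaziling ratio below was multiplied by 1.65. Fewer cells of a type and less RNA per cell cannot be told apart in these bulk libraries.

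All 45 LINE-1 unigenes had reads in both libraries, and their lengths ran from 203 to 1839 bp with a median of 466 bp. They were fragments for the most part. Of the 45, 42 were shorter than the reading frame of their nr protein, and the 27 ORF2 unigenes matched to a protein of at least 1200 residues had a median length of 12.2% of that frame. The longest in that respect was contig_13473, whose length was 48.1% of its ORF2 frame, so no unigene held a whole ORF2. These are ratios of lengths, and the aligned part was not measured.

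The 40 listed unigenes were all higher in Yorkshire. The study's list holds unigenes called in either direction in this same contrast, so their values are the ones that chose them and are given as a description, with no test. A unigene is called here when its RPKM ratio was at least 2 and its adjusted p was under 0.05 in an exact binomial test of the reads. Of all unigenes tested, 7.08% were called higher in Yorkshire and 24.1% higher in Shaziling, and for the 40 listed unigenes nothing is read from that comparison. Their median level was 36.5 RPKM in the Yorkshire library and 12.1 RPKM in the Shaziling library. The Yorkshire to Shaziling RPKM ratio ranged from 2.05 to 60.0 with a median of 2.82. It lay between 2 and 3 for 22 of them, between 3 and 6 for 12, and at 6 or more for 6. In the plot of ratios the unigenes crowd just above the limit of 2 and thin out toward larger ratios.

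**Figure D1:**
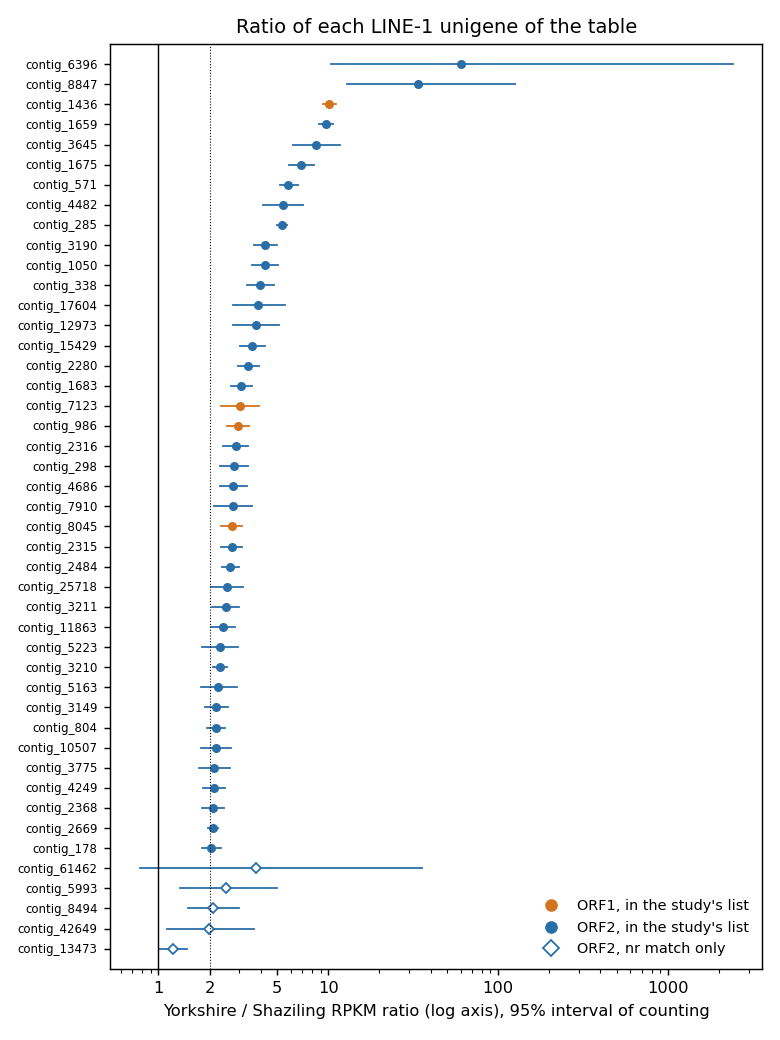
Yorkshire to Shaziling RPKM ratio of each of the 45 LINE-1 unigenes on a log axis, with lines for the exact 95% interval of counting error. Filled circles are the 40 unigenes chosen through the study's list, open diamonds the 5 known from the nr match alone, orange marks ORF1 and blue ORF2, and the dotted line marks a ratio of 2. The listed unigenes run from 2.05 to 60.0, and 1 open diamond, contig_61462, has an interval that spans 1.

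The highest ratio among the ORF1 unigenes belonged to contig_1436. This unigene of 1204 bp was longer than the frame of its nr protein of 296 residues. It had 6953 reads in Yorkshire and 573 in Shaziling, or 170 and 16.8 RPKM, a ratio of 10.1 (95% interval 9.29 to 11.0). The other ORF1 unigenes matched another nr protein, of 308 residues, and were shorter than its frame. Among them contig_8045 (371 bp) stood at 66.3 RPKM in Yorkshire and 24.6 in Shaziling, with a ratio of 2.70 (2.34 to 3.11). For contig_986 (479 bp) the levels were 49.9 and 17.0 RPKM, a ratio of 2.94 (2.54 to 3.42). The values of contig_7123 (323 bp) were 26.4 and 8.75 RPKM, a ratio of 3.01 (2.34 to 3.91). The intervals of these 3 overlapped one another, and the interval of contig_1436 lay above all of them.

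Among the unigenes of ORF2, the frame of the enzyme, contig_285 (LORF2_MOUSE, 645 bp) had the highest level in Yorkshire, with 6305 reads against 991 in Shaziling, or 288 and 54.3 RPKM. Its ratio was 5.30 (4.96 to 5.68). The next unigene, contig_2669 (LORF2_HUMAN, 466 bp), had 3485 and 1389 reads, or 220 and 105 RPKM, which made it the highest LINE-1 unigene of the Shaziling library, and its ratio was 2.09 (1.97 to 2.23). In contig_1659 (LORF2_HUMAN, 789 bp) the reads were 5415 and 469, or 202 and 21.0 RPKM, a ratio of 9.63 (8.76 to 10.6). These 3 unigenes matched the same nr protein of 1272 residues, and their intervals did not overlap, so unigenes with 1 common match differed between the libraries by unequal amounts beyond counting error. Without sequences, different copies and different stretches of 1 element cannot be told apart. Over all 16 listed unigenes matched to that protein the ratio ran from 2.05 to 9.63 with a median of 2.64.

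The other abundant ORF2 unigenes lay lower. A short one, contig_1675 (LORF2_HUMAN, 370 bp), stood at 107 RPKM in Yorkshire and 15.4 in Shaziling, with a ratio of 6.94 (5.89 to 8.22), and contig_571 (LORF2_HUMAN, 897 bp) at 68.9 and 11.8 RPKM, a ratio of 5.83 (5.16 to 6.60). Levels of 68.0 and 32.0 RPKM were found for contig_4249 (LORF2_MOUSE, ratio 2.13, 1.83 to 2.48), and of 54.7 and 23.8 RPKM for contig_3210 (LIN1_NYCCO, ratio 2.30, 2.10 to 2.52). The values of contig_11863 (LORF2_MOUSE) were 54.6 and 22.8 RPKM, a ratio of 2.39 (2.03 to 2.83), and those of contig_2315 (LORF2_MOUSE) were 55.3 and 20.5 RPKM, a ratio of 2.69 (2.33 to 3.12). With contig_178 (LORF2_HUMAN) at 49.3 and 24.1 RPKM, the 10 most abundant ORF2 unigenes all reached at least 49.3 RPKM in Yorkshire, and 3 of them, contig_1659, contig_1675 and contig_571, had ratios above that of contig_285.

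The 2 largest ratios of all rested on few Shaziling reads. For contig_6396 (LORF2_MOUSE, 203 bp) there were 72 reads in Yorkshire and 1 in Shaziling, or 10.4 and 0.174 RPKM, and the ratio of 60.0 had an interval from 10.4 to 2404. In contig_8847 (LORF2_HUMAN, 471 bp) there were 162 and 4 reads, or 10.1 and 0.300 RPKM, a ratio of 33.8 (12.9 to 125). A LIN1_NYCCO unigene, contig_3645 (274 bp), followed among the ORF2 unigenes after contig_1659, with 444 and 44 reads and a ratio of 8.41 (6.16 to 11.7). At the low end, just inside the limit of 2 stood contig_178 with a ratio of 2.05 (1.81 to 2.32) and contig_2669 with 2.09. Outside the list, 27 unigenes that had the nr protein of a listed one reached a mean RPKM of 10, and 9 of them met the call used here, with ratios up to 3.24 (contig_18017). Nearest to the limit were contig_14340 with 2.01, just inside it, and contig_4391 with 1.96 and contig_10139 with 1.92, just outside. These last names were chosen after their values were seen.

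The 5 unigenes named by the nr match alone were chosen without the reads, and all 5 had a higher RPKM in Yorkshire. The exact binomial test with Benjamini-Hochberg adjustment over 65535 unigenes called 2 of the 5 higher in Yorkshire and 0 higher in Shaziling, beside 7.08% and 24.1% of all unigenes, and 3 of the 5 had an adjusted p under 0.05 when the ratio was disregarded. They were far less abundant than the listed ones. The longest, contig_13473 (LORF2_HUMAN, 1839 bp), had 282 reads in Yorkshire and 192 in Shaziling, or 4.52 and 3.69 RPKM, a ratio of 1.22 (1.02 to 1.48, exact binomial adjusted p = 0.0779). The other 4 matched LIN1_NYCCO. Of these contig_8494 (1245 bp) had 123 reads against 49 and a ratio of 2.09 (1.49 to 2.98, exact binomial adjusted p = 4.62e-05), and for contig_5993 (852 bp) 42 and 14 reads gave a ratio of 2.50 (1.34 to 4.96, exact binomial adjusted p = 0.0092). A ratio of 1.99 (1.12 to 3.67) left contig_42649 just short of the limit of 2, with 43 and 18 reads (exact binomial adjusted p = 0.0431). With 9 and 2 reads, contig_61462 had a ratio of 3.75 (0.777 to 35.7, exact binomial adjusted p = 0.224), so that a difference was not detectable at this depth. Their median log2(RPKM + 1) difference was 0.59, beside -0.24 over all unigenes, and their reads summed to a ratio of 1.51 (1.30 to 1.76). With the fold limit raised to 3 none of the 5 was called, and with totals that left out the mitochondrial unigenes all 5 were. The shares of all unigenes called higher in Yorkshire were then 5.52% and 17.5%.

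**Figure D2:**
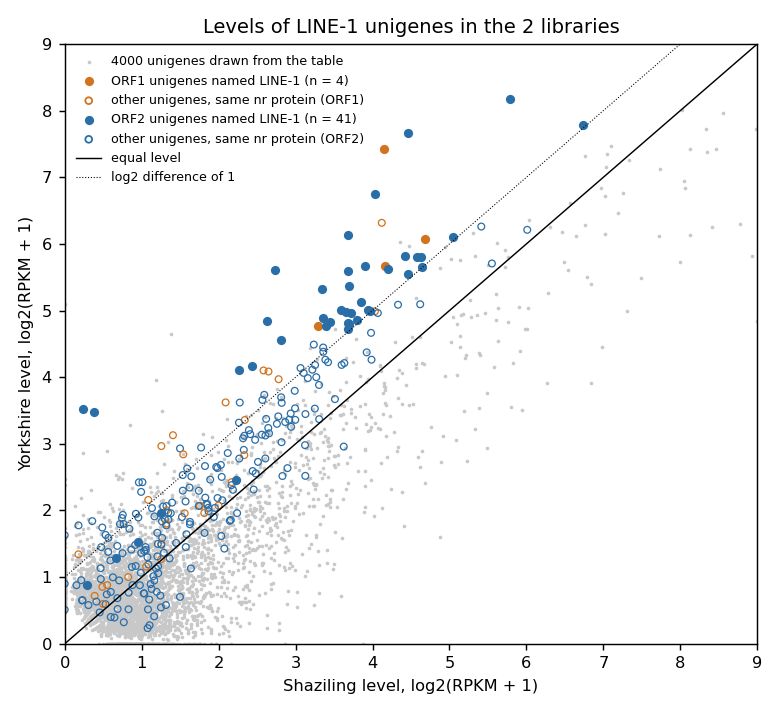
Level of each unigene in the Yorkshire library (vertical axis) against the Shaziling library (horizontal axis), both as log2(RPKM + 1). Filled points are the 45 LINE-1 unigenes, open points other unigenes with the same nr proteins, and grey points 4000 unigenes drawn at random from the table. Most filled points lie on or above the dotted line of a log2 difference of 1, and most grey points lie below the line of equal level.

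Summed over the 45 unigenes, LINE-1 reads numbered 46904 in Yorkshire and 10373 in Shaziling, or 1382 reads (1369 to 1394) and 366 reads (359 to 374) for each 1000000 of the library total. The ratio of these sums was 3.77 (3.69 to 3.85), and it was 3.15 with only the reads of the table as the total and 6.20 without the mitochondrial unigenes. Since 40 of the 45 were selected as called in this contrast, the sum describes the selection and is not a measure of all LINE-1 RNA. A few unigenes carried much of it. The 4 with the most Yorkshire reads, contig_1436, contig_285, contig_1659 and contig_2669, held 47.2% of the LINE-1 reads in Yorkshire and 33.0% in Shaziling. The order within each library also differed, as contig_1436 took the first place in Yorkshire with 14.8% and rank 4 in Shaziling with 5.52%, while contig_2669 took rank 4 in Yorkshire with 7.43% and the first place in Shaziling with 13.4%. Across the 45 unigenes the RPKM values of the libraries had a Spearman correlation of 0.86, and unigenes are not independent replicates.

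ORF1 and ORF2 unigenes were then compared. The median log2(RPKM + 1) difference was 1.495 for the 4 ORF1 unigenes and 1.36 for the 41 ORF2 unigenes, a gap of 0.13, and the median ratios were 2.98 and 2.74. All 4 ORF1 unigenes were selected as called, whereas the 41 included the 5 known from the nr match alone. These medians therefore mix frame with selection, and nothing is read from their gap. Summed reads gave a wider gap, with a ratio of 6.49 (6.11 to 6.91) for ORF1 and 3.43 (3.36 to 3.51) for ORF2. This gap came from 1 unigene. Without contig_1436 the summed ORF1 ratio was 2.84 (2.59 to 3.12), below that of ORF2. Per base of assembled sequence, the ORF1 unigenes had 110 RPKM in Yorkshire and 17.0 in Shaziling, and the ORF2 unigenes 45.7 and 13.3 RPKM, so that ORF1 stood at 2.41 times ORF2 in Yorkshire and at 1.27 times in Shaziling. Without contig_1436 the values were 1.06 and 1.28 times. These per-base values mix frame with selection in the same way as the medians. The members of 1 frame share sequence, and no test of the difference between frames was made.

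The study's list names called unigenes only, so all unigenes of the table that had the same nr protein as a listed LINE-1 unigene were also examined, a comparison chosen after the data were seen. There were 268 such unigenes over 21 nr proteins. Their frame, ORF1 or ORF2, was taken from the UniProt entry of the listed unigene. Whether each nr protein is itself a LINE-1 reading frame was not checked. They included the 40 listed LINE-1 unigenes and 2 more of the study's list, contig_1439 and contig_1447, which the list gave no entry. Of the 268, 89 (33.2%) were called higher in Yorkshire and 3 (1.12%) higher in Shaziling, and 226 (84.3%) had a ratio above 1. Of all unigenes, 36.8% had a ratio above 1, and among the 21369 with any nr match 27.4% did, with 4.39% called higher in Yorkshire and 33.0% in Shaziling. The proteins came from listed unigenes, which raises the Yorkshire count. Leaving out all 42 listed unigenes, which takes away those selected as called by the study, left 226 unigenes. Of the 226, 47 (20.8%) were called higher in Yorkshire and 3 (1.33%) higher in Shaziling. Of these, 184 (81.4%) had a ratio above 1, and the median log2(RPKM + 1) difference was 0.45. Their reads summed to a ratio of 1.53 (1.5002 to 1.57). Within these nr proteins, most unigenes outside the list thus had the same direction as the listed ones. The proteins themselves were still chosen through listed unigenes, so the share is not independent of that selection. The listed ones were selected as called in this contrast, so a smaller summed ratio outside the list follows in part from the choice. Nothing is read from that difference in size.

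The 3 unigenes called higher in Shaziling were rare ones that matched ORF2. They were contig_34154 with 19 reads in Yorkshire and 46 in Shaziling, contig_21045 with 8 and 25, and contig_33843 with 4 and 21. In the other direction 3 of the 268 unigenes had reads in Yorkshire only and 0 had reads in Shaziling only. Some unigenes not listed were abundant in both libraries with little difference. The levels of contig_2264 were 73.1 RPKM in Yorkshire and 63.5 in Shaziling, with a ratio of 1.15 (1.05 to 1.26), and those of contig_13488 were 51.2 and 45.9 RPKM, a ratio of 1.12 (0.980 to 1.27). Both matched the same nr protein of 1272 residues as contig_1659 and contig_285. Abundant ORF2 unigenes thus ranged from near-equal levels to a ratio of 9.63. All unigenes named in this paragraph, other than contig_1659 and contig_285, were named after their values were seen.

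The direction was then examined for each nr protein, which a listed unigene had brought into the set. The ORF2 protein of 1272 residues (ABR01162.1) was matched by 132 unigenes, of which 114 had a ratio above 1, 39 were called higher in Yorkshire and 1 higher in Shaziling, with a median difference of 0.58 on the log2(RPKM + 1) scale. The ORF1 protein of 296 residues (ABR01161.1) was matched by 19 unigenes, all 19 with a ratio above 1, 10 called higher in Yorkshire and a median difference of 0.96. The ORF1 protein of 308 residues (AAY53483.1) was matched by 13, all 13 with a ratio above 1, 6 called and a median difference of 0.68. In all, 14 nr proteins were matched by 5 or more unigenes, and their medians ran from 0.02 to 1.08. Without the listed unigenes 13 of the 14 medians were above 0 and 1 was below, from -0.02 to 0.999. Near-even proteins were ELR50258.1, with 3 of 6 unlisted unigenes above a ratio of 1, ELR55227.1, with 8 of 16, and ACT35644.1, with 5 of 9, all matched to ORF2. Joining both ORF1 proteins, 32 of 32 ORF1 unigenes had a ratio above 1 and 16 were called higher in Yorkshire, while 194 of 236 ORF2 unigenes (82.2%) had a ratio above 1 and 73 (30.9%) were called. Without the listed unigenes the counts were 26 of 26 with 10 called for ORF1, and 158 of 200 with 37 called for ORF2. The median differences without the listed unigenes were 0.44 for ORF1 and 0.45 for ORF2, beside shares with a ratio above 1 of 100% and 79.0%. Per base, the unlisted ORF1 unigenes stood at 0.723 times the ORF2 ones in Yorkshire and at 0.536 times in Shaziling. The per-base values given earlier were of a set that was not the listed unigenes alone. Its ORF2 unigenes included those known from the nr match alone, and its ORF1 unigenes left out the listed ones without an entry. Nothing is therefore read from a comparison with those earlier values.

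**Figure D3:**
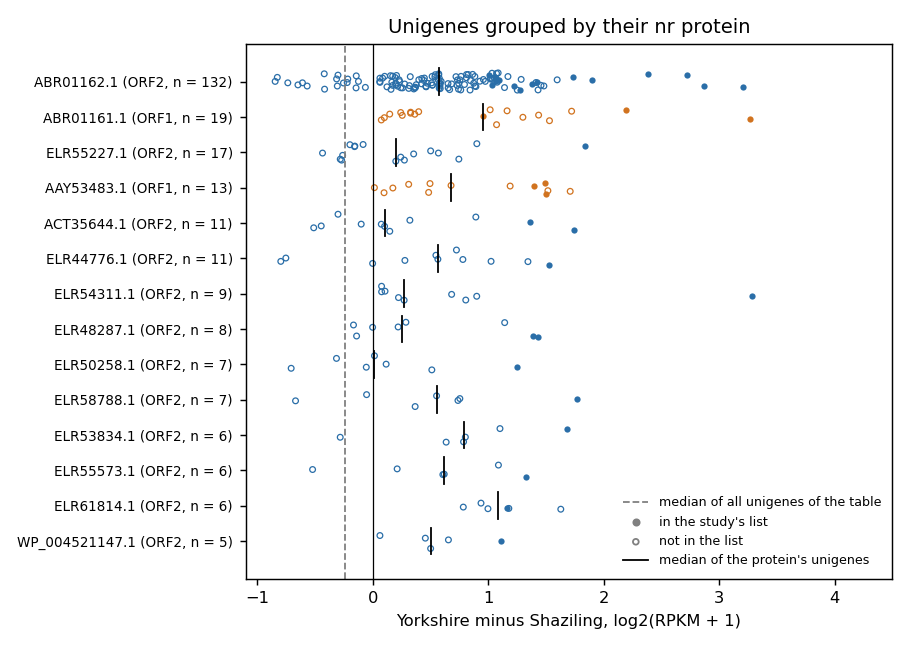
Difference of log2(RPKM + 1), Yorkshire minus Shaziling, of every unigene matched to each of the 14 nr proteins with 5 or more unigenes. Filled points are in the study's list, open points are not, orange marks ORF1 and blue ORF2, black bars are medians, and the dashed line is the median of all unigenes at -0.24. All 14 medians lie above 0, all orange points lie above 0, and blue points lie on both sides.

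Abundant and rare unigenes were compared next. The 37 LINE-1 unigenes whose mean RPKM reached 10 were all listed ones, and their median log2(RPKM + 1) difference was 1.40 against 0.67 for the 8 below 10. This gap of 0.72 fell to 0.10 with a pseudocount of 0.1, and the median ratio was 2.77 for the abundant and 3.13 for the rare unigenes, so that the gap depended on the pseudocount. The 268 unigenes that shared an nr protein were divided in the same way. Of the 42 with a mean RPKM under 1, 25 had a ratio above 1, 2 (4.76%) were called higher in each library, and the median ratio was 1.199. All unigenes at that level had 5.78% called higher in Yorkshire and 20.5% in Shaziling. Of the 160 with a mean RPKM from 1 to under 10, 135 (84.4%) had a ratio above 1, 39 (24.4%) were called higher in Yorkshire and 1 higher in Shaziling, with a median ratio of 1.54, beside 9.49% and 29.3% called over all unigenes of that level. All 66 whose mean RPKM reached 10 had a ratio above 1, 48 (72.7%) were called higher in Yorkshire and 0 higher in Shaziling, with a median ratio of 2.28. Over all 3325 unigenes of the table at that level, 28.7% had a ratio above 1, 5.95% were called higher in Yorkshire and 31.2% higher in Shaziling. A mean over both libraries also admits unigenes through the library in which they are high. Of the 66, 27 were not listed, with a median ratio of 1.82. Of these, 15 had a Shaziling RPKM under 10 and entered through Yorkshire, which includes all 9 that were called. The 12 with a Shaziling RPKM of at least 10 had ratios above 1 with 0 called. They too had to reach the mean, which drops unigenes low in Yorkshire. An example is contig_13357, not listed, with 6.78 RPKM in Yorkshire, 11.3 in Shaziling and a ratio of 0.597. The rise with abundance, of the called share and of the share with a ratio above 1, therefore supports no statement of its own. In rare unigenes few reads limit the call, and for those under a mean RPKM of 1 a difference was in most cases not detectable at this depth.

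**Figure D4:**
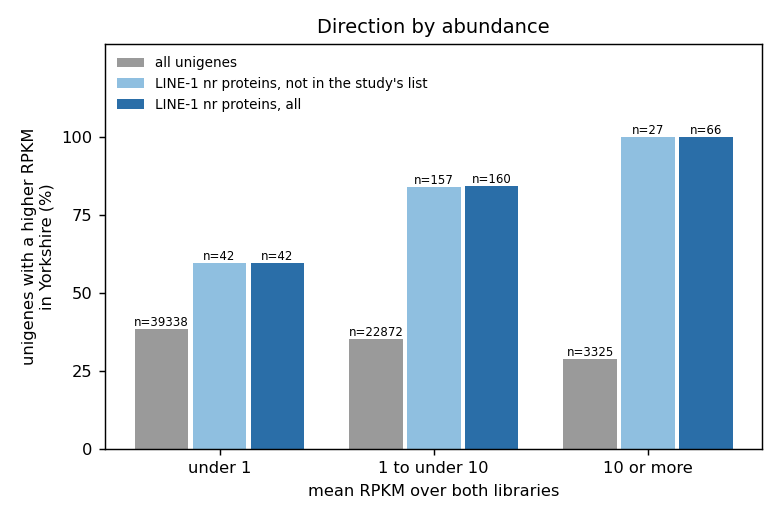
Percent of unigenes with a higher RPKM in Yorkshire (bars, from 0) by mean RPKM over both libraries. Grey bars are all unigenes of the table, and dark blue bars all unigenes with the nr protein of a listed LINE-1 unigene. Light blue bars are those of them outside the study's list. The number of unigenes stands above each bar. The blue bars rise from 59.5% to 100%, while the grey bars go from 38.4% to 28.7%. The mean admits unigenes through Yorkshire and drops some that are low there, so nothing is read from the rise.

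Length made little difference. The 18 LINE-1 unigenes under 400 bp had a median ratio of 2.72 and the 27 longer ones 2.85, a log2(RPKM + 1) gap of -0.11 that became 0.01 when the split was set at 500 bp. Listed unigenes, selected as called, made up most of both groups. Among the unigenes sharing an nr protein, 46 of 138 under 400 bp (33.3%) and 43 of 130 longer ones (33.1%) were called higher in Yorkshire. All 3 calls in the opposite direction fell in the longer group, where 80.8% had a ratio above 1 against 87.7% of the short ones. Among all unigenes the Yorkshire calls made up 7.60% under 400 bp and 6.58% of longer ones, and the Shaziling calls 17.7% and 30.4%. A ratio above 1 was found for 42.6% of all unigenes under 400 bp and 31.0% of longer ones, so the whole table differed by length in the same direction.

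Genes that silence or restrict LINE-1 and genes whose products work with its particle were looked up by symbol. A gene was found only where the nr match of a unigene was a RefSeq accession with a symbol, so a gene not found may still be expressed. Of 39 silencing and restriction genes 15 were found in the table, and 0 were called higher in Yorkshire, 5 (33.3%) higher in Shaziling and 10 in neither. The Shaziling share was near that of all unigenes (24.1%) and of those with an nr match (33.0%), so it is no result about this list. The 5 were RNASEH2C and RNASEH2A, subunits of the ribonuclease that removes RNA from RNA-DNA hybrids, MOV10, a helicase that restricts retrotransposons, SIRT6, a deacylase that silences LINE-1, and UHRF1, which helps maintain DNA methylation. In RNASEH2C there were 26 reads in Yorkshire and 264 in Shaziling, and the RPKM was 12.2 times higher in Shaziling (8.13 to 19.0). The counts were 14 and 110 for MOV10 (9.42 times, 5.38 to 17.8) and 4 and 24 for SIRT6 (7.20 times, 2.47 to 28.5). For UHRF1 they were 20 and 51 (3.06 times), and for RNASEH2A 66 and 125 (2.27 times). The blood markers were also higher in Shaziling, as given above, and their part in these values was not tested. Not called were MPHOSPH8, the chromodomain subunit of the HUSH silencing complex, with 2561 and 1201 reads and a ratio of 1.78 (1.66 to 1.91), and ATF7IP, a partner of the histone methyltransferase SETDB1, with 2151 and 1033 reads and a ratio of 1.74 (1.61 to 1.87). SETDB1 itself, also not called, had 344 and 556 reads and was 1.94 times higher in Shaziling (1.69 to 2.22). MORC2 of the same list had 307 and 378 reads (1.48 times higher in Shaziling, 1.27 to 1.72), with no call. These last 2 genes were named after their values were seen. Of the 15 genes, 7 had a Yorkshire to Shaziling ratio above 1.

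The calls of these genes moved with the scaling. With totals free of the mitochondrial unigenes, 4 silencing genes (MPHOSPH8, ATF7IP, HELLS and ZC3HAV1) were called higher in Yorkshire and 3 (RNASEH2C, MOV10 and SIRT6) higher in Shaziling, while the shares over all unigenes became 17.5% and 10.9%. Their median log2(RPKM + 1) difference went from -0.04 to 0.58. Of 21 partner genes 5 were found. LARP7, which binds small nuclear RNA, was called higher in Yorkshire with 1479 and 598 reads and a ratio of 2.06 (1.87 to 2.27), and it lost that call at a fold limit of 3. ZCCHC3, a zinc-finger nucleic acid sensor, was called higher in Shaziling with 12 and 30 reads (2.998 times, 1.49 to 6.43) and lost that call under the 3 other scalings. The poly(A)-binding protein PABPC4, at 49.3 RPKM in Yorkshire and 80.9 in Shaziling, and PARP1, a DNA damage enzyme, at 8.97 and 11.3, were called in neither direction.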

How the data were processed

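Poly(A) RNA of the LM was sequenced, with 1 Yorkshire and 1 Shaziling library. The authors trimmed the reads, assembled the unigenes de novo and matched them to nr and UniProt. The submitters' processing notes name CASAVA 1.8 and TopHat2 2.0.6, and the study's methods name Qualimap for the RPKM. The read counts the authors deposited were not normalized, and the deposited RPKM values are those counts scaled to the unigene length and to library totals, which were recovered from the table. These totals exceeded the reads of the table, which held 87.0% of them in Yorkshire and 72.7% in Shaziling. No column of per-sample values was left unused, and the authors' own comparison values were not used.

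Reads were tested between the libraries with a two-sided exact binomial test (smaller tail doubled) against those totals, with Benjamini-Hochberg adjustment over 65535 unigenes (scipy 1.17.1, Python 3.11.15). A call needed an RPKM ratio of 2 or more and an adjusted p under 0.05. The test compares 2 libraries and says nothing of the spread between pigs. Intervals are exact (Clopper-Pearson) at 95% and, like the test, cover counting error only. Differences are of log2(RPKM + 1), Yorkshire minus Shaziling. The test was checked on simulated data. Alternatives were 3 other scalings, one by TMM (edgeR 4.0.16), fold limits of 1.5 and 3, an adjusted p under 0.01, a pseudocount of 0.1, an RPKM filter, a length filter, and other splits.

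The members and gene lists were chosen with earlier results of these data known. Gene symbols came from RefSeq accessions through the Sscrofa11.1 table, which matched 5698 unigenes. Named were all ORF1 unigenes, the 10 most abundant ORF2 unigenes, the 5 with the largest and the 5 with the smallest ratio, the 5 known from nr alone, and, of the silencing and partner genes, up to 5 called in each direction and the 5 most abundant. The values of 1 partner gene are not reported here. A planned search for other retroelements by keyword found 0, as nr matches were given mostly as accessions without descriptions. No unigene sequences were in the files used here, so none are shown.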

Additional observations from a re-analysis of the deposited data

How the results depend on the processing

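With 1 library per breed no result had replicate error, and no library could be left out. No paired analysis was possible because each breed had 1 column, with no replicate number. The other scalings each moved every log2 ratio toward Yorkshire, by 0.72 without the mitochondrial unigenes in the totals, by 0.43 with equal RPKM sums and by 0.44 with TMM. Over all unigenes, Yorkshire calls against Shaziling calls went from 4642 and 15788 to 11495 and 7147, 7760 and 9723, and 7796 and 9695. In that order of scalings, the median difference of the 40 listed LINE-1 unigenes (1.43) was 2.14, 1.84 and 1.85, and that of the 268 unigenes sharing an nr protein (0.57, a set and alternatives chosen after seeing the data) was 1.18, 0.88 and 0.88. The Yorkshire calls among the 268 (89) were 173, 147 and 148, those outside the study's list (47) were 131, 105 and 106, and those of silencing and partner genes (1) were 5, 4 and 4. Without the mitochondrial unigenes, the Shaziling calls of the 268 (3, none of them listed) became 1, those of silencing and partner genes (6) became 3, the calls among the 5 unigenes known from nr alone (2) became 5 and their median (0.59) became 1.12, and the summed ratio (3.77) became 6.20. That ratio was 3.15 with the reads of the table as totals and 3.40 without contig_1436. At a fold limit of 3, the Yorkshire calls were 18 for the listed unigenes (40), 0 for the 5 others, 43 for the 268, 24 for those not listed and 0 for silencing and partner genes. Of all unigenes, 5.52% were then called higher in Yorkshire and 19.0% higher in Shaziling. At a limit of 1.5, 80 of those not listed and 3 silencing and partner genes were called higher in Yorkshire, and 6 of the 268, all not listed, higher in Shaziling. The shares over all unigenes were 8.44% and 27.6% at that limit. A pseudocount of 0.1 gave a median of 1.01 for the 5 unigenes known from nr and a gap of 0.096 between abundant and rare ones, and a split at 500 bp turned the gap between short and long ones to 0.0109. The other 97 values kept their direction, the counts among them within 1.5 times of those reported. The keyword search found nothing to recompute. Depth limits calls for unigenes with few reads.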
